A study of Mus musculus with 12 samples.

Results

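Bleomycin is an anticancer drug given into the lung to produce injury and then fibrosis in mice. Its effect was followed here from 2 to 4 weeks after instillation, in lung cells labelled as alveolar epithelial. The comparison set the 4-week libraries against the 2-week libraries by the values of each gene that both deposited tables hold. It concerned 6 of the 12 samples of the series, 3 at each time. Of these, 5 entered the test, because 4-week library 2 listed many genes at 0 and is given apart. All groups were C57BL/6 mice aged 8 to 10 weeks, with no transgene or mutant allele named. Mice of the bleomycin groups received 1.5 U/kg through the trachea. The 3 saline libraries are the reference for both times and, as the spread between libraries was estimated jointly, entered the fit of 8 libraries. The other 3 samples, taken 1 day after 2 mg/kg of lipopolysaccharide (LPS), enter an alternative fit alone. Digested lung was depleted of cells bearing leukocyte (CD45, CD16/32), endothelial (CD31), erythroid (Ter119) and mesenchymal (CD90, PDGFRα) surface proteins with magnetic beads, and cells bearing EpCAM, an epithelial surface protein, were then kept. The labels name neither the sex of the mice nor whether each library came from its own animal, so p-values measure the spread between these samples alone, and that spread may be technical.

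The alveolar surface is lined by flat type 1 (AT1) cells, across which gases pass, and cuboidal type 2 (AT2) cells, which make surfactant and act as progenitors of AT1 cells. After injury, surviving AT2 cells can divide, lose part of their surfactant program and pass through a keratin-rich transitional state before they become AT1 cells. In young mice, fibrosis after bleomycin is known to peak a few weeks after the injury and then to resolve in part, and macrophages that produce osteopontin (Spp1) are a known feature of the fibrotic phase.

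Expression is given in FPKM, which divides a gene's read fragments by the length of its transcript and by the size of the library. The 13580 genes in both tables summed to 325739 to 336500 FPKM in saline, 289056 to 302274 at 2 weeks, and 369942 (library 1) and 329218 at 4 weeks. The second of the 4-week pair is called the unnumbered library, because its column number matched no sample title. Read totals are unknown. Pearson correlations across genes on log2(FPKM + 1) were 0.9809 to 0.988 among the 2-week libraries, 0.9755 between the 4-week pair and 0.9518 to 0.9742 between the times. Library 2 of the 4-week group listed 6182 of the 13580 genes (45.5%) at 0, against 1 to 36 genes in the other 8 libraries used, and correlated with them at 0.571 to 0.637. Epcam stood at 39.0, 46.2 and 38.8 FPKM in saline, 22.9, 29.9 and 30.4 at 2 weeks and 25.9 and 32.5 at 4 weeks, but was listed at 0 in library 2. Ptprc, the gene of CD45, stood at 4.03 to 8.85 FPKM in the 8 libraries, and Scgb1a1, a product of airway club cells, at 3386 to 23855 FPKM. The AT2 markers that define the labelled cells were present in all 8 libraries (20 markers sum to 6689 to 25568 FPKM), together with transcripts of airway, leukocyte and mesenchymal cells.

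Between 2 and 4 weeks, transcripts of dividing cells, of macrophages and of the injury matrix fell, while transcripts of surfactant, of club cells and of the mitochondrial genome rose. Of 12955 genes tested, 435 rose (3.36%) and 1542 fell (11.9%), together 15.3% (limma, Benjamini-Hochberg adjusted p under 0.05). At an unadjusted p under 0.05 there were 4520. The levels of the 4-week pair lay above all 3 of the 2-week libraries in 11.3% of genes and below all 3 in 38.0%. The median log2 difference of all genes was -0.16, and the larger number of falling genes depended on the scaling: with median-ratio scaling, which sets that median to 0, 706 genes rose (5.45%) and 702 fell (5.42%). Quantile normalization gives all libraries the same value at each rank, so a gene that keeps its rank shows no change. It gave 598 and 730, and scaling to equal totals gave 285 and 4412. The values below are as deposited, so a fall of 0.16 is the midpoint of all genes.

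**Figure D1:**
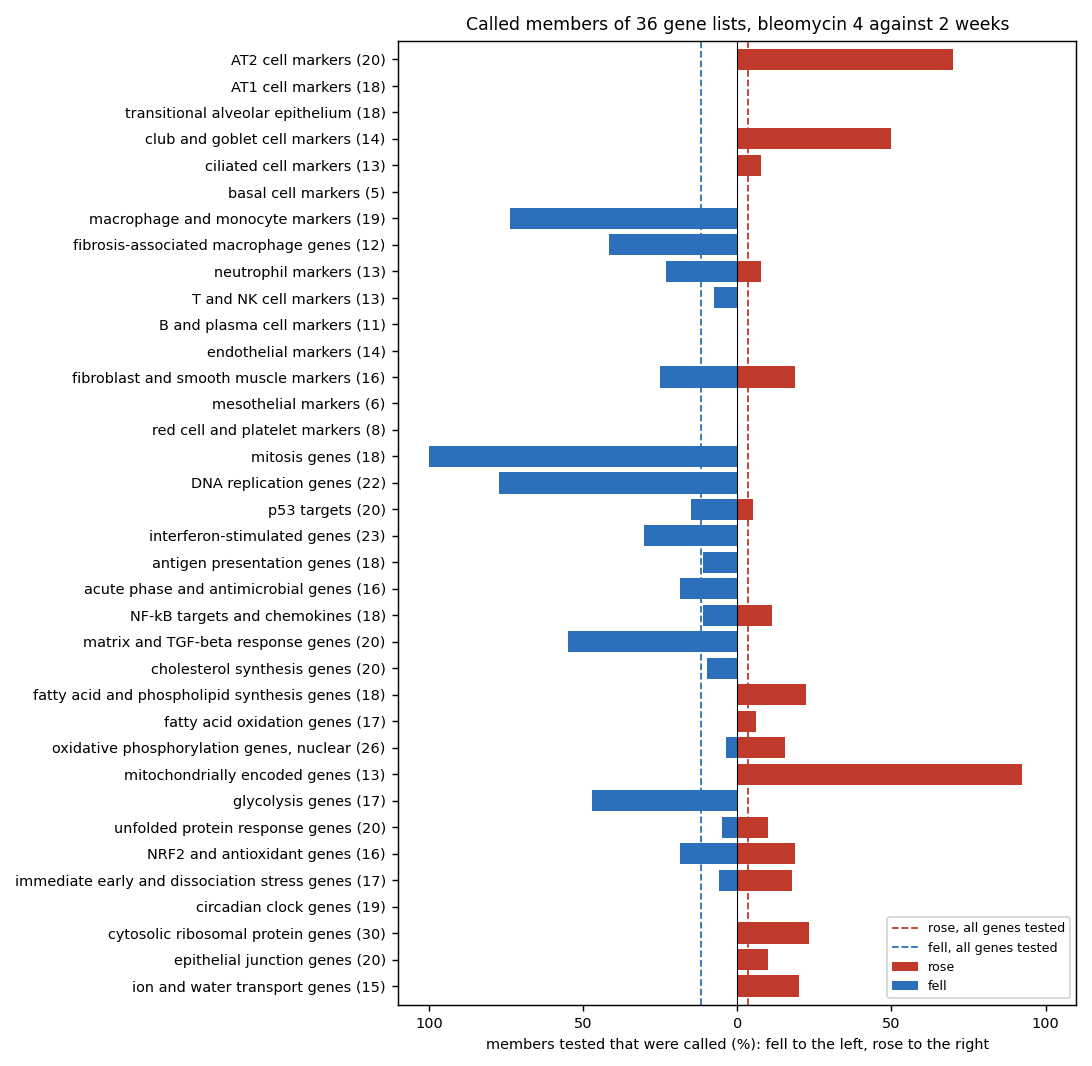
Share of the tested members of each of 36 gene lists that fell (blue, to the left) or rose (red, to the right) between 2 and 4 weeks, with the number tested in parentheses and dashed lines at the shares over all genes tested (11.9% fell, 3.36% rose). Mitosis, replication, macrophage and matrix lists reach furthest to the left, and mitochondrially encoded, AT2 and club cell lists furthest to the right. The bars include members that passed the filter through the 2-week libraries alone and so had to differ. These were 10 of the mitosis genes and 1 each of the replication and macrophage lists.

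Genes of mitosis, the division of the duplicated chromosomes, fell to their saline level. Mki67, which encodes the proliferation antigen Ki-67 on chromosome 7 (135689784 to 135716361), as the deposited tables place it on mm10, stood at 1.78, 1.14 and 1.13 FPKM in saline, 7.55, 8.73 and 7.48 at 2 weeks and 0.953 and 1.14 at 4 weeks. Every 2-week library was far above the saline range and both 4-week libraries were within or below it. The log2 difference between 4 and 2 weeks was -2.12 ± 0.15 (SE, limma adjusted p = 0.000316). Ccnb2, the gene of cyclin B2, which drives entry into mitosis, stood at 2.83, 2.19 and 2.67 FPKM in saline, 10.2, 14.2 and 12.4 at 2 weeks and 2.20 and 2.17 at 4 weeks (log2 -2.05 ± 0.15, limma adjusted p = 0.000386). Cdc20, an activator of the anaphase-promoting complex, stood at 4.57, 2.96 and 4.43, 11.7, 14.1 and 13.6 and 3.55 and 2.27 FPKM in the same order of groups (log2 -1.87 ± 0.19, limma adjusted p = 0.00126). In these genes the 4-week pair lay below all 2-week libraries, as in 38% of all genes tested.

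All 18 mitosis genes tested fell, against 11.9% of all genes tested (median log2 of the 18 -1.84). All 18 were above saline at 2 weeks (against 14.1% of all genes tested), with 0 called in either direction at 4 weeks against saline. Of the 18, 10 reached 1 FPKM in 2 libraries only by way of the 2-week group and so had to differ, and their count gives no support. The other 8 passed the filter without the 2-week libraries and fell as well, from Bub1b, a spindle checkpoint kinase (log2 -1.29 ± 0.12, limma adjusted p = 0.000917), to Top2a (log2 -2.17). The other 5 genes of the list (Ccnb1, Aurkb, Hmmr, Cenpe and Cenpf) are in the 2-week table alone, at group means of 1.26 to 2.75 FPKM, and were not tested. Every gene in the 4-week table has a mean of at least 0.501 FPKM in saline or over the 3 libraries of that group, library 2 included.

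The proximal promoters of several of these genes carry the letters through which genes of the late cell cycle are known to be timed, and 5 are printed to show them beside the expression. The CHR element (TTTGAA) is the binding site of the MuvB complex, and the CCAAT box that of NF-Y. The sequences are RefSeq windows of 300 bases on build GRCm38.p6, 250 before to 50 after the start site, on the strand of the gene. Capitals in the first 4 mark every TTTGAA and CCAAT on either strand, so that TTCAAA and ATTGG are their reverse complements. Top2a encodes the topoisomerase that untangles sister chromatids (chr11:99024140-99024439, minus strand), Ube2c a ubiquitin carrier of the anaphase-promoting complex (chr2:164769679-164769978, plus strand), and Mki67 and Ccnb2 lie at chr7:135716330-135716629 and chr9:70421505-70421804, both on the minus strand. In the Uhrf1 window (chr17:56303087-56303386, plus strand), a gene of maintenance DNA methylation in S phase, capitals mark instead the 8 letters GGCGGGAA, here as their reverse complement TTCCCGCC, a form of the E2F site.
Top2a: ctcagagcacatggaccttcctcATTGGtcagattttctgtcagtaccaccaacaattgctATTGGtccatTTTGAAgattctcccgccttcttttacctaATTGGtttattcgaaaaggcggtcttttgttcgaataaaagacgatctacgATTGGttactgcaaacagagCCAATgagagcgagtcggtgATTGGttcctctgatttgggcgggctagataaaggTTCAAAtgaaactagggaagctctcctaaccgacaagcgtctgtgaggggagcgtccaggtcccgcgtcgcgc
Ube2c: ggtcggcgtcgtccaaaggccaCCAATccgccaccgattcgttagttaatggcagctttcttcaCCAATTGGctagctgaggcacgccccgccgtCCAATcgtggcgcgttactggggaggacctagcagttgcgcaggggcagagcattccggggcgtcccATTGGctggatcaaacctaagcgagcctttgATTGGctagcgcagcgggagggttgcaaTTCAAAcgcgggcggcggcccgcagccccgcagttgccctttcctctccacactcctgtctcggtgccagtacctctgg
Mki67: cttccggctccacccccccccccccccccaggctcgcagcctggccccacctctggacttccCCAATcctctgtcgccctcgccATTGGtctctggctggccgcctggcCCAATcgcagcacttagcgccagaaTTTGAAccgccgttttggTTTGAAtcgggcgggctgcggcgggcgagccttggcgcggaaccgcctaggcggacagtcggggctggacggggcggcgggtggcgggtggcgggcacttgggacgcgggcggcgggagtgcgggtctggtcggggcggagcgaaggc
Ccnb2: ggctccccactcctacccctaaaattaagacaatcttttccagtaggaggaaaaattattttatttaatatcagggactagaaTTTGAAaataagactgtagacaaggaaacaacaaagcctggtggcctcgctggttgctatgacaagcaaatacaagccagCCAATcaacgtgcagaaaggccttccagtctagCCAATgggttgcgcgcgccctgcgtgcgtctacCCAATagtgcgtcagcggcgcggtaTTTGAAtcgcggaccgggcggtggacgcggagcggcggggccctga
Uhrf1: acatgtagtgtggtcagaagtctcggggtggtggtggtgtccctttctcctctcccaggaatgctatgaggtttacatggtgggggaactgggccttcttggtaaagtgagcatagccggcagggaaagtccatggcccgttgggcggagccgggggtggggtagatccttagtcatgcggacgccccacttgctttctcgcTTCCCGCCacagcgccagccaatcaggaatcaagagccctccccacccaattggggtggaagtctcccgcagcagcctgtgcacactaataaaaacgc

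Top2a stood at 1.81, 1.39 and 1.18 FPKM in saline, 8.16, 9.94 and 8.15 at 2 weeks and 1.14 and 1.19 at 4 weeks (log2 -2.17 ± 0.14, limma adjusted p = 0.000235), and its window holds TTTGAA at positions -179 and -23 from the start site. Ube2c stood at 1.79, 1.45 and 1.84, 7.83, 9.78 and 8.48 and 1.59 and 1.55 FPKM in the same order (log2 -1.91 ± 0.13, limma adjusted p = 0.000235), with TTTGAA at position -29. Both genes were back at their saline range at 4 weeks or just below it. Of the 18 tested mitosis genes 14 matched a RefSeq window by symbol, and 11 of these (78.6%) held both TTTGAA and CCAAT on either strand, against 7.12% of all 27025 windows and 4.74% of the 9832 windows of genes tested. TTTGAA alone was in 18.1% of all windows and CCAAT in 37.9%. Of 16 AT2 marker windows, 0 held both. The motifs were chosen after the expression values had been seen, and a match describes the letters only.

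DNA replication genes, which act in S phase, also fell. Of 22 tested, 17 fell (against 11.9% of all genes tested) and 0 rose (median log2 -0.93). Tk1, 1 of the 17, passed the filter by way of the 2-week group alone and so had to differ, and 16 of the other 21 fell. Of the 22, 14 were above saline at 2 weeks (against 14.1% of all genes tested) and 0 at 4 weeks, where 2 were below saline (against 3.92%). Rrm2, the regulated subunit of ribonucleotide reductase, which makes deoxynucleotides, stood at 2.34, 1.90 and 1.66 FPKM in saline, 7.80, 11.5 and 9.21 at 2 weeks and 1.63 and 1.34 at 4 weeks (log2 -2.07 ± 0.17, limma adjusted p = 0.000559). Mcm5, a subunit of the replicative helicase, stood at 3.21, 2.50 and 2.47, 7.85, 9.02 and 8.44 and 1.89 and 2.03 FPKM (log2 -1.67 ± 0.13, limma adjusted p = 0.000416), and the other 5 subunits of that helicase (Mcm2, Mcm3, Mcm4, Mcm6 and Mcm7) fell by 0.66 to 1.31 on the log2 scale. Uhrf1 stood at 1.41, 1.30 and 1.32, 4.80, 5.95 and 4.42 and 0.976 and 0.751 FPKM (log2 -1.69 ± 0.13, limma adjusted p = 0.000496). In these 3 genes the 4-week pair lay below every saline library.

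Pcna, the sliding clamp of DNA polymerases, stood at 53.5, 45.1 and 40.9 FPKM in saline, 42.0, 53.2 and 45.8 at 2 weeks and 36.9 and 40.8 at 4 weeks, and did not pass the test (adjusted p = 0.233). Gins1, Pold1, Prim1 and Tyms did not pass either. GGCGGGAA was in 6 of the 20 replication gene windows that matched (30.0%), against 2.24% of all windows and 4.03% of those of genes tested, and in 0 of the 14 mitosis windows. The replication count was 10 without 2-week library 2. That of the mitosis list stayed 18 without any 1 saline or 2-week library, but 10 of these had to differ and only the other 8 bear on this. Without 4-week library 1 the median log2 difference was -0.84 for replication and -1.91 for mitosis genes. Gins2 and Cdc6 of the replication list are in the 2-week table alone, at means of 1.58 and 0.879 FPKM.

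**Figure D2:**
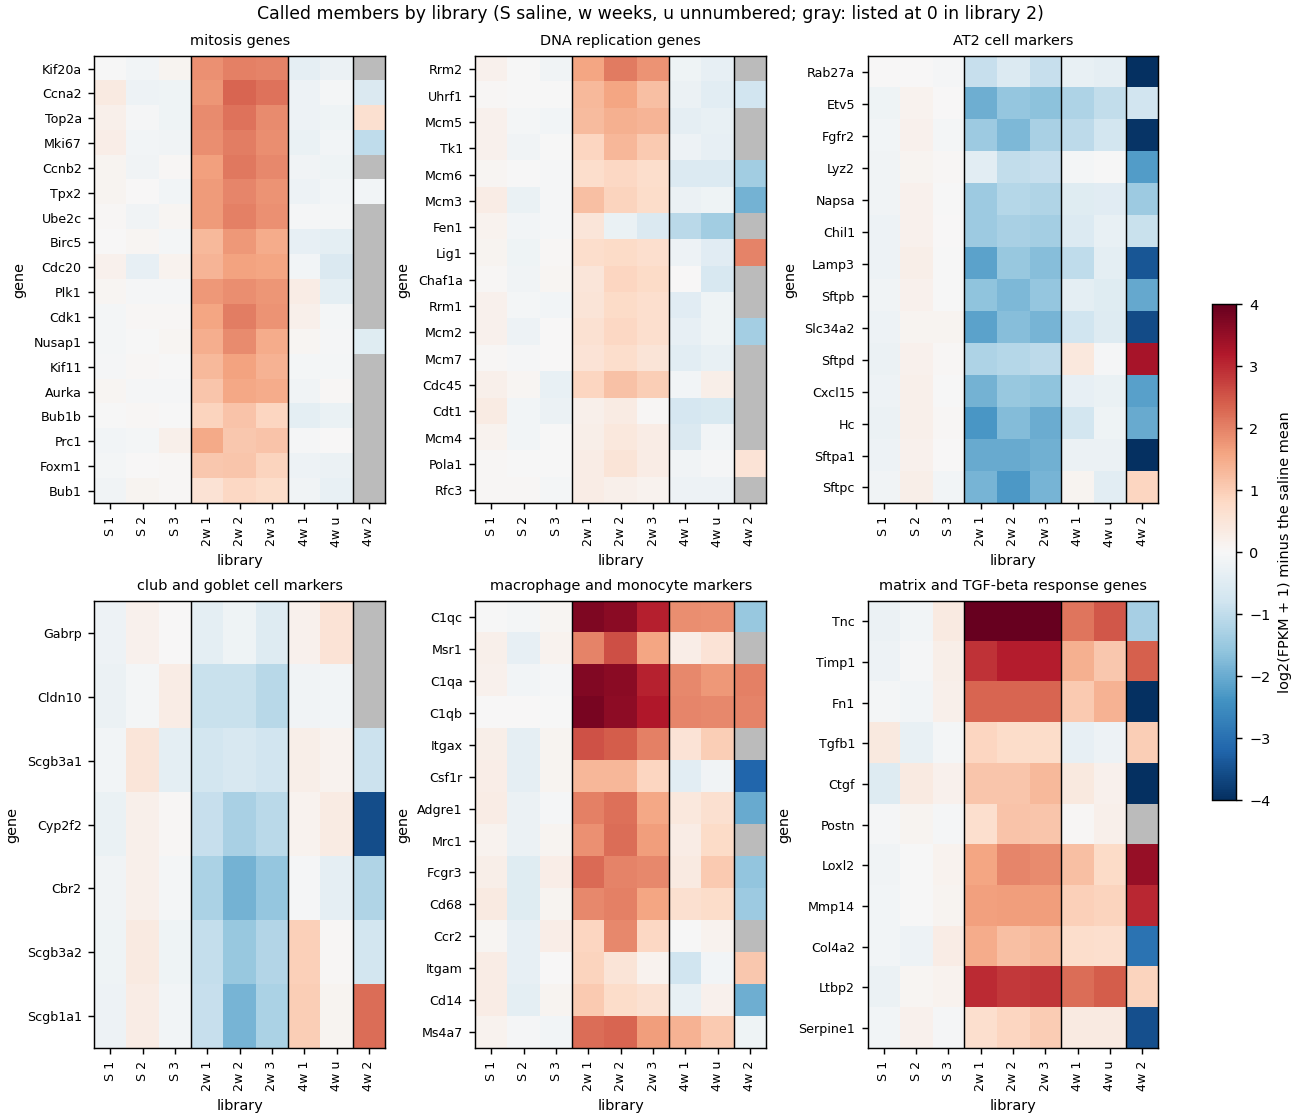
Level of each called member of 6 lists in each library, as log2(FPKM + 1) minus the mean of the 3 saline libraries, with colours saturating at 4 in either direction and gray where 4-week library 2 lists the gene at 0. Only members called between the times are drawn, so the contrast of the 2-week columns with the 4-week pair follows from that choice. The 4-week pair lies between the 2-week columns and saline, near saline or beyond it, as Scgb1a1 does in library 1.

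Surfactant and other AT2 transcripts rose. Sftpc, which encodes surfactant protein C, a defining AT2 product, on chromosome 14 (70520941 to 70524081), stood at 10854, 14144 and 11008 FPKM in saline, 3257, 2427 and 3294 at 2 weeks and 12988 and 8895 at 4 weeks. The 4-week pair lay above all 2-week libraries, as in 11.3% of all genes tested. Of the pair, library 1 lay within the saline range and the unnumbered library below it. The log2 difference was 1.86 ± 0.24 (limma adjusted p = 0.00354), and it lost its call with quantile normalization (adjusted p = 0.516). Sftpa1, a surfactant collectin gene, stood at 1103, 1433 and 1279, 312, 312 and 332 and 1069.8 and 1067 FPKM (log2 1.74 ± 0.14, limma adjusted p = 0.000559). Sftpb, whose product is needed to spread surfactant lipid, stood at 1434, 1800.1 and 1569, 521, 459 and 550.5 and 1221 and 1138 FPKM (log2 1.21 ± 0.15, limma adjusted p = 0.00296). Sftpd, the other lung collectin, stood at 667, 881 and 799.8, 331, 353 and 376 and 1045 and 746 FPKM (log2 1.32 ± 0.18, limma adjusted p = 0.00442). All 4 surfactant protein genes were thus lower than saline in every 2-week library, and Sftpa1 and Sftpb had not reached the lowest saline library at 4 weeks.

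Of 20 AT2 markers tested, 14 rose (against 3.36% of all genes tested) and 0 fell (median log2 0.88). In 19 of the 20 the 4-week pair lay above all 2-week libraries (against 11.3% of all genes tested). At 2 weeks 19 of the 20 were below saline (against 9.26% of all genes tested) and at 4 weeks 3 were (against 3.92%). Hc, the complement C5 gene, stood at 102, 140.0 and 124, 23.5, 36.0 and 29.9 and 72.5 and 107 FPKM in saline, at 2 and at 4 weeks (log2 1.55 ± 0.22, limma adjusted p = 0.00537). Cxcl15, a lung chemokine gene, stood at 756, 1002 and 854, 230.4, 303 and 283 and 684 and 715 FPKM (log2 1.37 ± 0.17, limma adjusted p = 0.00272). Slc34a2, the phosphate transporter of AT2 cells, stood at 305, 384 and 379.6, 80.4, 109 and 96.3 and 202 and 248 FPKM (log2 1.23 ± 0.17, limma adjusted p = 0.00467). These 3 genes rose in both 4-week libraries but stayed below the saline mean in each.

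Some AT2 markers did not pass or stayed far below saline. Abca3, which loads lipid into lamellar bodies, stood at 58.9, 70.7 and 65.1 FPKM in saline, 23.2, 24.6 and 23.8 at 2 weeks and 27.5 and 42.0 at 4 weeks, and did not pass (log2 0.50 ± 0.17, adjusted p = 0.0757). Etv5, a transcription factor gene that maintains AT2 cells, stood at 48.9, 60.7 and 55.0, 13.3, 18.2 and 16.9 and 22.8 and 27.1 FPKM (log2 0.60 ± 0.16, limma adjusted p = 0.0366). Both genes stood at less than the lowest saline value in each 4-week library. Nkx2-1, the lung lineage transcription factor gene, had 19.4, 25.3 and 26.1 FPKM at 2 weeks and 35.7 and 35.8 at 4 weeks (adjusted p = 0.0576). Ctsh, Cebpa, Muc1 and Lpcat1 also did not pass. The count of 14 was 16 with median-ratio scaling and 9 without the unnumbered 4-week library. In bulk RNA, fewer cells of a type and less RNA per cell cannot be told apart.

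Outside the list, the naming rule took further genes with large rises. S100g, a small calcium-binding protein gene, stood at 184, 248 and 194 FPKM in saline, 32.9, 59.5 and 53.7 at 2 weeks and 266 and 177 at 4 weeks (log2 2.18 ± 0.27, limma adjusted p = 0.00296), the largest rise by the naming rule. Sfta2, a surfactant-associated gene, stood at 79.2, 93.9 and 81.6, 13.6, 25.2 and 20.8 and 97.1 and 55.0 FPKM (log2 1.87 ± 0.28, limma adjusted p = 0.00619). Npw, the gene of neuropeptide W, stood at 26.8, 31.5 and 24.7, 3.62, 5.62 and 5.56 and 20.2 and 20.2 FPKM (log2 1.86 ± 0.17, limma adjusted p = 0.00094). The naming rule took only genes whose times did not overlap, so that trait is no result for these 3. Npw was below every saline library in both 4-week libraries. Cox6a2, a cytochrome c oxidase subunit isoform known from striated muscle, stood at 25.7, 26.95 and 26.2, 4.60, 7.54 and 5.71 and 33.8 and 20.8 FPKM (log2 2.01 ± 0.22, limma adjusted p = 0.00148).

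AT1 and transitional markers did not pass the test in this comparison. Of 18 AT1 markers, 0 were called in either direction, although 14 of the 18 differences were above 0. Their median log2 difference was 0.28, against -0.16 over all genes tested. Ager, which encodes the AT1 receptor RAGE, stood at 144, 242 and 280.2 FPKM in saline, 123, 114 and 145 at 2 weeks and 275 and 193 at 4 weeks (log2 0.86 ± 0.27, adjusted p = 0.0639). Hopx, an AT1 homeobox gene, stood at 128, 175 and 228, 65.6, 88.5 and 91.2 and 109 and 98.1 FPKM (log2 0.35 ± 0.23, adjusted p = 0.313). For Ager and Hopx the 4-week pair lay above the 2-week libraries without passing, and the saline libraries themselves spread widely. Of 18 genes of the transitional state 0 were called (median log2 0.03). Krt8, its keratin marker, stood at 203, 224 and 189.5 FPKM in saline, 121, 117 and 136 at 2 weeks and 137 and 142 at 4 weeks (adjusted p = 0.355). Cdkn1a, the gene of the cell cycle inhibitor p21, stood at 174, 118 and 122, 190.4, 161 and 180.1 and 193 and 193 FPKM (adjusted p = 0.631). At an unadjusted p under 0.05 in limma, 4 AT1 markers were higher at 4 weeks and 0 lower, and 3 transitional genes were higher and 3 lower. With median-ratio scaling 1 gene of each list was called (Cldn18, adjusted p = 0.0379, and Sfn, adjusted p = 0.0327), and with equal totals 6 transitional genes and 1 AT1 marker fell. Without saline library 1, 3 AT1 markers rose.

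Club cell transcripts rose with those of AT2 cells. Of 14 club and goblet cell markers, 7 rose (against 3.36% of all genes tested) and 0 fell (median log2 0.77). At 2 weeks 7 had been below saline (against 9.26% of all genes tested). Scgb1a1, the main club cell secretoglobin, stood at 10682, 14835 and 11399 FPKM in saline, 6448, 3386 and 5028 at 2 weeks and 23855 and 13120.3 at 4 weeks (log2 1.89 ± 0.34, limma adjusted p = 0.0119). The higher of the 4-week values, in library 1, exceeded every saline library, and the other lay within the saline range. The call was lost without library 1 and with quantile normalization, where the difference was 0. That scaling gives a difference of 0 to any gene that keeps its rank. Cyp2f2, a club cell cytochrome P450, stood at 577, 795 and 721, 363, 281 and 323 and 761 and 861 FPKM (log2 1.33 ± 0.17, limma adjusted p = 0.00354). Cbr2, a carbonyl reductase, stood at 1393, 1758 and 1463, 630.1, 408 and 521 and 1486 and 1182 FPKM (log2 1.37 ± 0.21, limma adjusted p = 0.00648).

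Mucin and goblet genes of the same list gave other values. Muc5b had 1.88, 1.32 and 1.55 FPKM at 2 weeks and 1.48 and 2.05 at 4 weeks, and Agr2 2.30, 3.52 and 2.25 and 1.79 and 1.15 FPKM, neither past the test (adjusted p = 0.752 and 0.331). The 7 calls became 2 without 4-week library 1. Of 13 ciliated cell markers 1 rose, Tppp3, a tubulin-binding protein gene, from 86.8, 79.7 and 86.6 FPKM at 2 weeks to 145 and 117 at 4 weeks (log2 0.62 ± 0.12, limma adjusted p = 0.0155), a call lost without 2-week library 2 or 4-week library 1. Of 5 basal cell markers 0 were called (limma, 1 at an unadjusted p under 0.05), and their summed level was 5.92 to 12.6 FPKM at 2 weeks and 10.3 to 16.4 FPKM at 4 weeks.

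**Figure D3:**
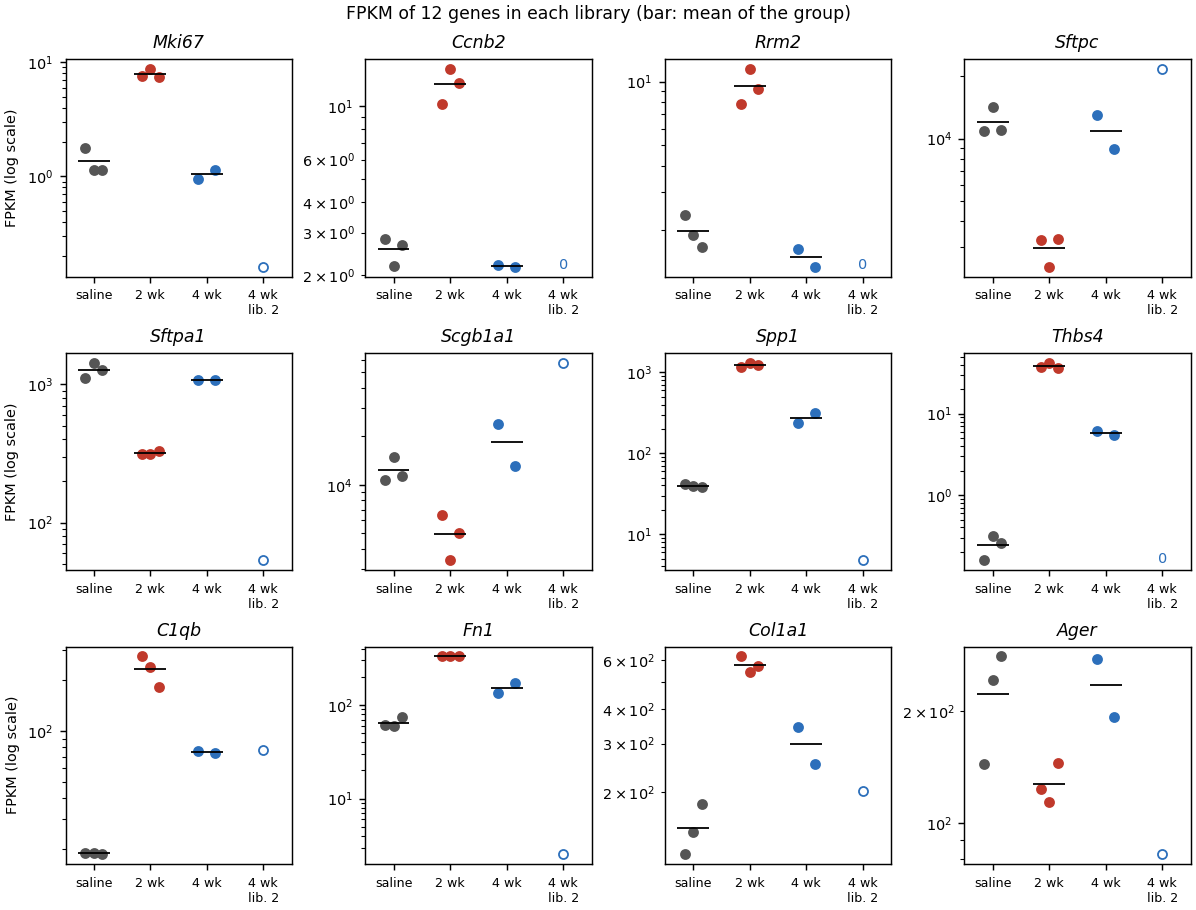
FPKM of 12 genes on a log scale in each saline, 2-week and 4-week library (filled points, with bars at the group means) and in 4-week library 2 (open points, or the digit 0 where listed at 0). Mki67, Ccnb2, Rrm2, Spp1, Thbs4, C1qb, Fn1 and Col1a1 are highest at 2 weeks, while Sftpc, Sftpa1, Scgb1a1 and Ager have their lowest group means there.

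Macrophage transcripts fell from a high level at 2 weeks. Of 19 macrophage and monocyte markers, 14 fell (against 11.9% of all genes tested) and 0 rose (median log2 -1.14). All 19 differences were below 0, as was the median over all genes tested (-0.16). Msr1, 1 of the 14, passed the filter by way of the 2-week libraries alone and so had to differ, and 13 of the other 18 fell. Their summed level was 328 to 523 FPKM in saline, 1058 to 1462 at 2 weeks and 576 to 645 at 4 weeks, so the groups did not overlap. C1qb, a chain of the complement recognition protein C1q, stood at 18.9, 19.0 and 18.7 FPKM in saline, 276, 238 and 181 at 2 weeks and 76.2 and 74.0 at 4 weeks (log2 -1.59 ± 0.16, limma adjusted p = 0.00121). C1qc followed the same order at 7.78, 7.37 and 8.28, 117, 105 and 75.5 and 31.0 and 30.4 FPKM (log2 -1.64 ± 0.17, limma adjusted p = 0.00127). The means of both C1q chains at 4 weeks were 3.98 and 3.93 times their saline means. Csf1r, the receptor of macrophage colony-stimulating factor, stood at 21.5, 13.8 and 19.2, 46.0, 45.9 and 33.2 and 12.9 and 16.0 FPKM (log2 -1.46 ± 0.21, limma adjusted p = 0.00541). Fcgr1, a high-affinity IgG receptor gene outside the list, fell from 11.2, 12.6 and 7.51 FPKM at 2 weeks to 1.49 and 2.39 at 4 weeks (log2 -1.95 ± 0.23, limma adjusted p = 0.00225).

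Some markers did not pass. Chil3 and Ear2, which mark resident alveolar macrophages, and Ly6c2, which marks monocytes, did not pass (adjusted p = 0.83, 0.291 and 0.877). Ptprc had 8.02, 8.85 and 6.11 FPKM at 2 weeks and 4.03 and 5.92 at 4 weeks (adjusted p = 0.104). The 14 calls became 3 without 4-week library 1 and 9 without 2-week library 2. Cells bearing CD45 or CD16/32 had been removed, so these transcripts came from a preparation meant to lack leukocytes. The part of leukocyte RNA in the other differences reported here was not tested.

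Among genes that macrophages of fibrotic lung are known to express, Spp1, the gene of osteopontin, was the most abundant that fell. It lies on chromosome 5 (104435118 to 104441050) and stood at 42.0, 38.9 and 37.9 FPKM in saline, 1179.7, 1319 and 1221 at 2 weeks and 237 and 316 at 4 weeks (log2 -2.17 ± 0.14, limma adjusted p = 0.000235). Every 4-week value was several times the saline level and far below the 2-week level. Arg1, the arginase gene of alternatively activated macrophages, stood at 2.09, 2.49 and 1.98, 9.25, 18.8 and 10.1 and 1.13 and 1.97 FPKM (log2 -2.38 ± 0.27, limma adjusted p = 0.00207). Trem2, a lipid receptor gene, stood at 0.596, 0.346 and 0.474, 11.5, 10.0 and 8.12 and 2.86 and 3.07 FPKM (log2 -1.44 ± 0.15, limma adjusted p = 0.00126). Arg1 was below every saline library at 4 weeks, whereas Trem2 and Spp1 were above them.

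In the list of 12 such genes, 5 fell (against 11.9% of all genes tested) and 0 rose. The elastase gene Mmp12 and the lipase gene Lpl were the others that fell. At 4 weeks 8 of the 12 were still above saline, against 2.42% of all genes tested. Ctsk, a collagen-degrading cathepsin, stood at 21.3, 23.7 and 24.2 FPKM in saline, 99.5, 114 and 97.1 at 2 weeks and 98.3 and 81.9 at 4 weeks, and its difference between the times did not pass (adjusted p = 0.288). Gpnmb (adjusted p = 0.139) and Apoe (adjusted p = 0.484) did not pass either. The 5 calls became 3 without 2-week library 2 and 3 without 4-week library 1.

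Other leukocyte lists gave few calls. Of 13 neutrophil markers 3 fell (Mmp9, Mmp8 and Csf3r), against 11.9% of all genes tested, and 1 rose. The gene that rose was G0s2, a lipase inhibitor gene also expressed in fat-storing cells. It went from 38.8, 47.3 and 42.8 FPKM at 2 weeks to 86.5 and 92.3 at 4 weeks (log2 1.04 ± 0.16, limma adjusted p = 0.00728). The count of 3 became 0 without 4-week library 1, and 1 without either of 2-week libraries 1 and 2. Mmp9, a gelatinase gene, had 5.90, 3.04 and 5.24 FPKM in saline, 4.69, 5.41 and 3.78 at 2 weeks and 0.822 and 1.11 at 4 weeks (log2 -1.51 ± 0.23, limma adjusted p = 0.00641). Of 13 T and NK cell markers 1 fell, Cd3e, a chain of the T cell receptor complex, from 9.25, 10.2 and 6.84 to 3.89 and 3.99 FPKM (limma adjusted p = 0.0148), a call lost without 4-week library 1. The count became 3 without saline library 1 and 6 with equal totals. Of 11 B and plasma cell markers 0 were called (limma, 1 at an unadjusted p under 0.05). Osm, a cytokine gene of myeloid cells, was among the largest falls, with 7.80, 5.61 and 5.52 FPKM in saline, 38.6, 52.97 and 36.1 at 2 weeks and 7.29 and 13.0 at 4 weeks (log2 -1.99 ± 0.25, limma adjusted p = 0.00306).

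Matrix and TGF-beta response genes fell in part. Of 20 tested, 11 fell (against 11.9% of all genes tested) and 0 rose (median log2 -0.60). Above saline were 14 at 2 weeks and 8 at 4 weeks, against 14.1% and 2.42% of all genes tested. Tnc, the gene of the injury matrix protein tenascin C, stood at 4.61, 5.14 and 7.54 FPKM in saline, 105, 109 and 127 at 2 weeks and 28.1 and 36.1 at 4 weeks (log2 -1.80 ± 0.19, limma adjusted p = 0.00141). Timp1, an inhibitor of matrix proteases, stood at 41.0, 46.2 and 55.6, 359, 420.0 and 419.9 and 129 and 102 FPKM (log2 -1.79 ± 0.16, limma adjusted p = 0.000878). Fn1, the fibronectin gene, stood at 61.5, 59.7 and 74.0, 332, 331 and 332 and 134 and 171 FPKM (log2 -1.12 ± 0.14, limma adjusted p = 0.00307). In each of the 3 genes, both 4-week libraries lay between the saline and the 2-week ranges. Tgfb1, the cytokine gene itself, stood at 23.6, 14.2 and 16.8, 33.2, 30.5 and 30.3 and 14.0 and 15.2 FPKM (log2 -1.05 ± 0.18, limma adjusted p = 0.0104), and at 4 weeks it was within or just below the saline range.

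Some members stayed high. Sparc, a collagen-binding glycoprotein gene, stood at 365, 436 and 562 FPKM in saline, 1162, 855 and 1152 at 2 weeks and 1043 and 817 at 4 weeks (adjusted p = 0.584). Ltbp2, an elastic fibre gene, fell little, from 99.5, 90.5 and 92.2 to 59.6 and 67.8 FPKM, with 9.95, 12.5 and 13.3 in saline (log2 -0.56 ± 0.14, limma adjusted p = 0.0303). The list's 11 calls became 6 with median-ratio scaling, 6 without 2-week library 2, 6 without 2-week library 3 and 5 without 4-week library 1. Outside the list, Thbs4, the gene of the matricellular protein thrombospondin 4 on chromosome 13 (92751590 to 92794818), fell most of all genes named. It stood at 0.158, 0.317 and 0.259 FPKM in saline, 37.3, 42.2 and 35.9 at 2 weeks and 6.04 and 5.48 at 4 weeks (log2 -2.54 ± 0.12, limma adjusted p = 4.62e-05). Fst, the gene of the activin antagonist follistatin, stood at 1.82, 2.34 and 2.23, 32.9, 51.5 and 44.5 and 10.2 and 7.27 FPKM (log2 -2.17 ± 0.20, limma adjusted p = 0.000906). Both genes stayed above every saline library at 4 weeks.

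Mesenchymal markers split. Of 16 markers of fibroblasts and smooth muscle, 3 rose and 4 fell, against 3.36% and 11.9% of all genes tested. Their summed level was 3190 to 3902 FPKM in saline, 3332 to 4060 at 2 weeks and 3774 to 4183 at 4 weeks. Col1a1, the main fibrillar collagen chain, stood at 119.6, 144 and 181 FPKM in saline, 619.7, 545 and 571 at 2 weeks and 344 and 252 at 4 weeks (log2 -0.97 ± 0.19, limma adjusted p = 0.0172). Col1a2, Thy1 (CD90, a target of the depletion) and Pdgfrb fell with it, by 0.66, 0.87 and 0.47 on the log2 scale. Inmt, a methyltransferase gene abundant in lung, rose, with 1424, 1575 and 1311 FPKM in saline, 444, 253 and 391 at 2 weeks and 980.4 and 1019.6 at 4 weeks (log2 1.50 ± 0.22, limma adjusted p = 0.00631), as did Tcf21, a fibroblast transcription factor gene (log2 0.77 ± 0.16), and Dcn, which encodes decorin (log2 0.57 ± 0.12). Both collagen I chains were thus lower at 4 weeks, while Inmt, Tcf21 and Dcn were higher. The 4 falls became 0 with median-ratio scaling and in the fit with the LPS libraries, 2 without 2-week library 1, and 1 without 2-week library 2, 2-week library 3 or 4-week library 1. The 3 rises became 1 without 2-week library 2 or 4-week library 1. Acta2, the smooth muscle actin of myofibroblasts, had 428, 394 and 411 FPKM at 2 weeks and 477 and 307 at 4 weeks (adjusted p = 0.835). In the endothelial, mesothelial and red cell and platelet lists (14, 6 and 8 genes) 0 were called by limma, with 1, 0 and 0 at an unadjusted p under 0.05. Without the unnumbered library 3 endothelial markers fell. The part of mesenchymal RNA in the matrix differences was not tested.

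Of 23 interferon-stimulated genes, 7 fell (against 11.9% of all genes tested) and 0 rose (median log2 -0.57). Mx1, 1 of the 7, passed the filter by way of the 2-week libraries alone and so had to differ. Oas1a, an antiviral synthetase gene, stood at 4.31, 2.48 and 3.13 FPKM in saline, 13.5, 14.0 and 11.4 at 2 weeks and 3.66 and 5.29 at 4 weeks (log2 -1.36 ± 0.20, limma adjusted p = 0.00581), and Rsad2, which encodes viperin, at 2.93, 1.65 and 1.84, 6.38, 6.40 and 5.26 and 1.39 and 2.23 FPKM (log2 -1.33 ± 0.20, limma adjusted p = 0.00619). The 7 calls became 4 with median-ratio scaling, 16 with equal totals, 11 without saline library 1, 4 without 2-week library 1, 3 without 2-week library 2 and 1 without 4-week library 1. Of 18 antigen presentation genes 2 fell, a share near the 11.9% of all genes tested. They were H2-DMa and H2-DMb1, whose products load peptide on class II molecules (log2 -0.85 ± 0.17 and -0.59 ± 0.14). That count became 12 with equal totals, 5 without saline library 1, 1 without 2-week library 1 and 0 without 2-week library 2 or 4-week library 1.

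Of 16 acute phase and antimicrobial genes 3 fell, a share not far above the 11.9% of all genes tested, and 0 rose. Cfb, the complement factor B gene, stood at 20.7, 28.2 and 23.5 FPKM in saline, 75.0, 71.9 and 62.3 at 2 weeks and 32.2 and 36.1 at 4 weeks (log2 -1.01 ± 0.15, limma adjusted p = 0.00573). Saa3, a serum amyloid A gene, fell to 45.5 and 28.7 FPKM from 71.4, 58.6 and 62.6, still above its 2.71, 3.90 and 3.04 in saline (log2 -0.81 ± 0.20, limma adjusted p = 0.0318). Lcn2, the gene of an iron-sequestering protein of injured epithelium, had 90.0, 98.4 and 105 FPKM at 2 weeks and 131 and 120.4 at 4 weeks and did not pass (adjusted p = 0.211). Of 18 NF-kB targets and chemokines 2 rose, against 3.36% of all genes tested. They were Cxcl1, a neutrophil chemoattractant gene (log2 0.68 ± 0.14), and the cytokine gene Il6 (log2 0.64 ± 0.13). Cxcl16 and Relb fell, a share near the 11.9% of all genes tested. The rises became 1 without 2-week library 2 or 4-week library 1, and the falls 0 without either of these or with median-ratio scaling. Il6 stood at 50.5, 60.9 and 52.9 FPKM in saline, 63.2, 64.9 and 73.7 at 2 weeks and 97.3 and 113 at 4 weeks (limma adjusted p = 0.0176), so it was highest at 4 weeks. Cxcl1 had its highest values at 4 weeks too, 178 and 189.6 FPKM against 121, 98.3 and 124 at 2 weeks (limma adjusted p = 0.0174).

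Transcripts of the mitochondrial genome rose. Of 13 tested, 12 rose (against 3.36% of all genes tested) and 0 fell (median log2 0.95). Their summed level was 19298 to 20599 FPKM in saline, 12557 to 13940 at 2 weeks, and 29759 and 22694 at 4 weeks, highest in library 1. The one not called, mt-Atp6, varied widely, with 949, 264 and 234 FPKM at 2 weeks and 540.3 and 2169 at 4 weeks. mt-Nd2, a subunit of respiratory complex I, stood at 1734, 1776 and 1893 FPKM in saline, 922, 1068 and 867 at 2 weeks and 3074 and 1863 at 4 weeks (log2 1.33 ± 0.21, limma adjusted p = 0.00762). The 12 calls became 2 with quantile normalization, 2 without 4-week library 1, 4 without 2-week library 3 and 0 in the fit with the LPS libraries. Of 26 nuclear genes of oxidative phosphorylation 4 rose and 1 fell, against 3.36% and 11.9% of all genes tested. With equal totals 3 rose and 10 fell, and with the length trend removed 4 rose and 4 fell. In those that rose, such as Cox6c (27.6, 30.6 and 25.8 FPKM at 2 weeks, 72.3 and 44.8 at 4 weeks), 4-week library 1 held the highest value, and 0 rose without it, 1 or 2 without any saline or 2-week library and 9 without the unnumbered library.

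Part of the glycolysis genes fell. Of 17, 8 fell (against 11.9% of all genes tested) and 0 rose, and 7 had been above saline at 2 weeks (against 14.1%). Pkm, the pyruvate kinase gene, stood at 139.8, 134 and 143 FPKM in saline, 205, 203 and 192 at 2 weeks and 125 and 134 at 4 weeks (log2 -0.63 ± 0.10, limma adjusted p = 0.00842), and Pgam1, of phosphoglycerate mutase, at 39.4, 41.0 and 41.1, 62.6, 69.7 and 63.1 and 36.9 and 44.7 FPKM (log2 -0.67 ± 0.11, limma adjusted p = 0.0098). At 4 weeks Pkm was at or below the lowest saline library and Pgam1 on either side of the saline range. The count was 5 with median-ratio scaling or without 2-week library 1, 3 without 2-week library 2, 4 without 2-week library 3 and 2 without 4-week library 1.

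Lipid synthesis supplies surfactant production. Of 18 genes that build fatty acids or phospholipids 4 rose (against 3.36% of all genes tested) and 0 fell. At 2 weeks 11 had been below saline (against 9.26% of all genes tested). Fasn, the fatty acid synthase gene, stood at 44.1, 49.3 and 43.4 FPKM in saline, 19.9, 21.8 and 17.8 at 2 weeks and 27.8 and 37.5 at 4 weeks (log2 0.68 ± 0.15, limma adjusted p = 0.0212). Mid1ip1, which aids acetyl-CoA carboxylase, stood at 33.8, 36.7 and 34.4, 15.3, 17.5 and 15.03 and 28.6 and 26.6 FPKM (log2 0.76 ± 0.11, limma adjusted p = 0.00522). Elovl1, a fatty acid elongase gene, and Scd1, a fatty acid desaturase gene, rose by log2 0.72 and 0.82. The 4 rises became 2 without 2-week library 1 or 2-week library 3 and 0 in the fit with the LPS libraries. Without the unnumbered library 3 rose and 4 fell (median log2 -0.23), and with equal totals 3 rose and 3 fell. Of 17 fatty acid oxidation genes 1 rose, Pdk4, a kinase gene that restrains pyruvate oxidation, and its call was lost without any one 2-week library, 4-week library 1 or saline library 2 or 3.

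Other lists held a few calls each. Gsta3, a glutathione transferase gene of the NRF2 list, stood at 36.1, 41.0 and 41.6 FPKM in saline, 9.92, 10.8 and 10.3 at 2 weeks and 33.5 and 34.5 at 4 weeks (log2 1.63 ± 0.11, limma adjusted p = 0.000235), and Gstm1 at 328, 302 and 278, 111, 104 and 140.2 and 269.7 and 222 FPKM (log2 1.05 ± 0.16, limma adjusted p = 0.00648). In that list of 16, 3 rose and 3 fell, and the falls became 0 or 1 without any one 2-week library, 4-week library 1 or saline library 3, and 5 without the unnumbered library. Over all genes tested 3.36% rose and 11.9% fell. The glutathione transferases have near-identical relatives with which reads may be shared. Of 20 p53 targets 3 fell (Plk2, Mdm2 and Polk), a share near the 11.9% of all genes tested, and 1 rose, Btg2, an antiproliferative gene (log2 0.45 ± 0.12). The falls became 1 without any one of the 2-week libraries, 4-week library 1 or saline libraries 2 and 3, 5 without the unnumbered library and 10 with equal totals. The rise was lost without any one library other than the unnumbered. Plk2, a stress kinase gene, stood at 73.4, 72.6 and 76.2 FPKM in saline, 100.4, 93.4 and 97.1 at 2 weeks and 47.3 and 62.6 at 4 weeks (limma adjusted p = 0.00725). Hspa5, the chaperone BiP of the endoplasmic reticulum, rose from 102, 74.3 and 86.1 FPKM to 188 and 310.2 (log2 1.47 ± 0.38, limma adjusted p = 0.0374), with 73.9, 85.5 and 193 in saline, where library 3 stood high. Its call was lost without any one of the 5 bleomycin libraries.

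Of 20 epithelial junction genes 2 rose, Cldn7 and Cldn3, which encode claudins (log2 0.70 ± 0.11 and 0.61 ± 0.14), and 1 rose without any one of the 2-week libraries or 4-week library 1. Of 15 ion and water transport genes 3 rose, among them Cftr, the chloride channel gene, from 0.597, 0.688 and 0.582 FPKM at 2 weeks to 1.11 and 1.50 at 4 weeks (limma adjusted p = 0.0321). Without any one bleomycin library or saline library 3, 1 of the 3 rose. Of 17 immediate early and dissociation stress genes 3 rose and 1 fell. Over all genes tested 3.36% rose and 11.9% fell, which is the measure for every list in this paragraph. Fos, a gene known to respond to tissue digestion, stood at 1169, 1379 and 1229 FPKM in saline, 751, 514 and 691 at 2 weeks and 1019.7 and 1020.4 at 4 weeks (limma adjusted p = 0.0409), the same order as the AT2 markers. The 3 rises became 0 without any one library other than 2-week library 1, and the part of dissociation in the AT2 rise was not tested. Of 30 cytosolic ribosomal protein genes 7 rose and 0 fell, a count of 0 to 3 without any one library other than the unnumbered, and of 18 without that one. Of 19 circadian clock genes 0 were called by limma, and 3 were lower at an unadjusted p under 0.05. Without the unnumbered library 4 fell, and with equal totals 3.

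The 2 libraries of the 4-week group differed in how the difference depended on gene length. Of 5 equal groups of genes by exon length, that with the shortest exons (204 to 2339 bases) had a median log2 difference from 2 weeks of 0.05 in library 1 and -0.06 in the unnumbered library, and in the longest group (7368 to 41155 bases) it was -0.29 and -0.09. Of the shortest group 8.85% of genes rose, and of the longest 1.12%. Falls did not follow length in this way, at 8.31%, 13.5%, 14.1%, 13.6% and 9.94% from the shortest group to the longest. With each library's trend over length removed, 420 genes rose and 1701 fell. The counts were 18 for mitosis (10 of which had to differ), 14 for AT2 and 10 for mitochondrially encoded genes. Lyz2, mt-Nd4l and mt-Atp8 lost their calls, Abca3 gained one, and the median log2 difference of the mitochondrially encoded genes became 0.62. The part of length in the rises of short transcripts, such as those of ribosomal proteins, was not tested gene by gene.

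**Figure D4:**
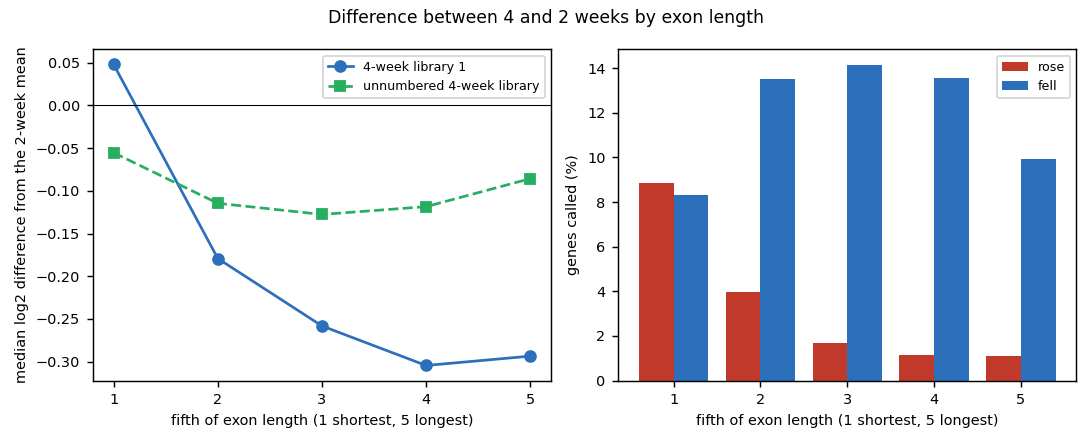
Left, median log2 difference from the 2-week mean of each 4-week library in 5 equal groups of genes by exon length. Right, share of genes called up or down in each group. Library 1 declines from 0.05 to -0.29 with length, while the unnumbered library stays between -0.13 and -0.06.

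Between the deposited tables, 404 genes were in the 2-week table alone and 87 in the 4-week table alone, and neither set could enter the comparison. Of the 404, 20 had a mean of at least 2 FPKM at 2 weeks. Among the 10 list members in the 2-week table alone, besides those of the cell cycle, were Csf3, the gene of granulocyte colony-stimulating factor, at 2.22, 1.21 and 1.83 FPKM, and Saa1 at 0.800 FPKM on average.

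The number of calls rested on the libraries used. It was 416 without 4-week library 1 and 3574 without the unnumbered library, 1021, 649 and 877 without 2-week libraries 1, 2 and 3, and 1163 without saline library 3. With 4-week library 2 kept it was 28. Of the 109 named genes that were called, 56 kept their call without 4-week library 1 and 98 without the unnumbered library, and with the 4-week group reduced to a single library that sample is assumed to vary like the other groups.

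**Figure D5:**
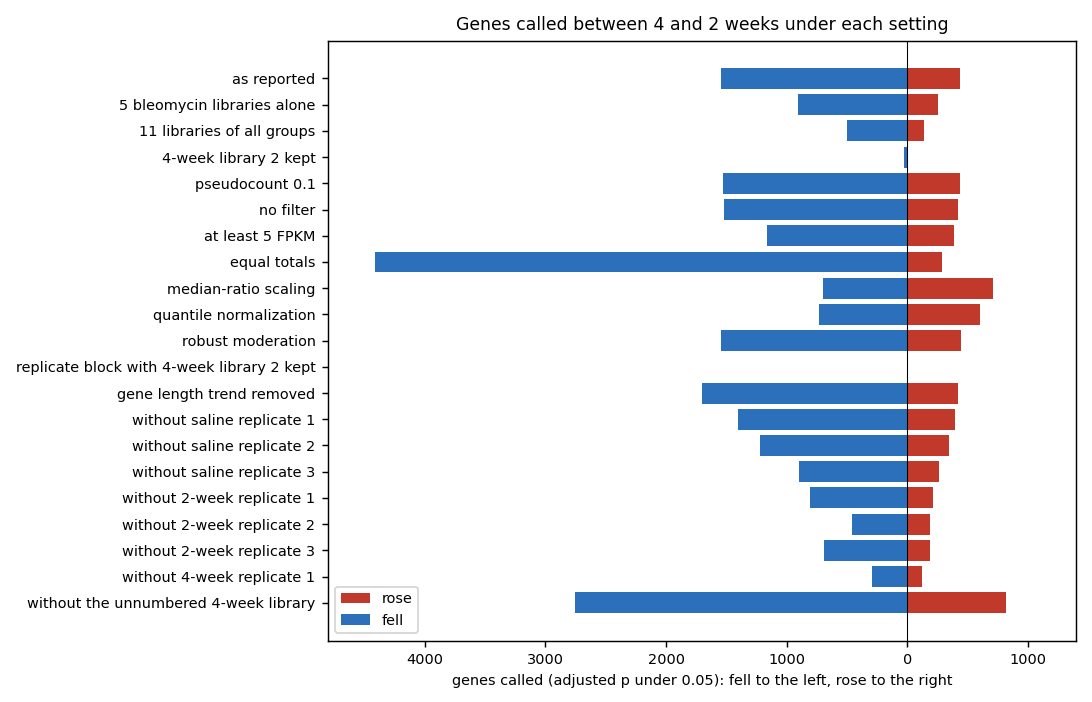
Genes called as fallen (blue, to the left) or risen (red, to the right) between 2 and 4 weeks under the reported setting (top) and each alternative. The totals run from 0 with a replicate block, which also keeps 4-week library 2, and 28 with that library kept to 4697 with equal totals. Median-ratio scaling evens the directions (706 and 702).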

How the data were processed

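RNA of EpCAM-selected mouse lung cells was sequenced on an Illumina HiSeq instrument, per the labels' protocols. HISAT2, StringTie and the mm10 build are named, with no versions, per the submitters' processing notes. The authors deposited, per treatment, a table of FPKM per library and gene, with group means on a log2(FPKM + 1) scale, log2 differences from saline, a fold ratio, and p-values and q-values of their own test. From these tables the FPKM alone was used here. They list protein-coding genes only, and the saline columns were identical in both bleomycin tables (largest difference 0). Read totals could not be recovered from the FPKM steps, so no interval that needs depth is given. The 4-week columns numbered 1 and 2 match sample titles, and the third does not and is known by its group only.

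The tables (13984 and 13667 genes) were joined on gene ID. Genes with at least 1 FPKM in 2 or more of 8 libraries were tested on log2(FPKM + 1) with limma 3.58.1 (R 4.3.3, lmFit and eBayes with a trend, Benjamini-Hochberg adjustment over all 12955 genes, threshold 0.05), with groups as the only term. A positive log2 difference means higher at 4 weeks. Adding 1 FPKM understates the change of low genes. The procedure was tested on simulated data for the comparison of 4 with 2 weeks. These had independent noise and no length trend, difference in scale or shift common to most genes. The simulation thus does not bear on such features of the real libraries. Of 606 symbols in 36 lists, 589 were tested. The genes named are the 10 largest changes in each direction (no overlap, and a group mean that reaches 10 FPKM), up to 4 called genes per list with the smallest adjusted p, and fixed genes; others named were chosen after their values were seen. The comparison, its members and the lists were chosen with earlier results of these data known. Promoter windows are from RefSeq (GRCm38.p6) and were matched by symbol. The alternatives were other pseudocounts, filters, scalings, sets of libraries, a replicate block and each library left out; removal of a gene length trend was added after the data had been seen. Results on some genes are not reported here.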

Additional observations from a re-analysis of the deposited data

Results flagged for a closer look

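The 4-week library kept out of the tests listed 31 of 116 named genes at 0, against 45.5% of all genes. Of the named genes, 10 that are reported here stood above all 8 other libraries. The share of all genes that did so was not counted. Those of secretory and surfactant cells were Scgb1a1, the club cell secretoglobin, at 57535.8 FPKM, Sftpc, of surfactant protein C, at 21625.4 FPKM, and Sfta2 at 303.661 FPKM. Those of metabolism and detoxification were Gstm1 at 379.776 FPKM, Gpx2 at 83.575 FPKM, Fasn at 81.6152 FPKM, Cox6a2 at 39.04 FPKM and Uqcrc1 at 35.9462 FPKM. The remaining genes were Btg2 at 1036.86 FPKM and the protease gene Mmp14 at 260.311 FPKM. Of these 10, Uqcrc1 and Mmp14 had fallen between 2 and 4 weeks in the libraries tested and the other 8 had risen. In this library the 10 most abundant genes held 34.9% of the summed FPKM, against 6.99% to 18.1% in the others.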

How the results depend on the processing

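The 1977 calls became 1155 (250 rose, 905 fell) with the 5 bleomycin libraries alone, 636 with the 3 LPS libraries added, 28 with 4-week library 2 kept and 4697 with equal totals. They ran from 416 to 3574 with 1 library left out. Other pseudocounts, filters, moderation, median-ratio and quantile scaling and removal of the length trend gave 1328 to 2121. Of the 589 list members, 175 were called, 84 with the LPS libraries, 12 with library 2 kept, and 71 to 209 with 1 library left out. Of the 109 named genes called, 0 reversed under the other 18 alternatives. Changes of filter, moderation or of the saline or LPS libraries leave the difference of group means unchanged, so it could not reverse there. Nor could genes whose 2 times did not overlap reverse with 1 bleomycin library left out. Calls were lost by 48 (of 108) with the LPS libraries, 39 without 2-week library 2 and 28 with quantile normalization. Weighting the libraries by their fit was not run, because the weights did not converge.

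With 4-week library 2 kept, 16 log2 differences reversed: Atf3 -0.35, Cxcl1 -1.14, Egr1 -0.10, Fos -0.97, G0s2 -1.12, Hspa5 -0.60, Il6 -1.60, Mid1ip1 -0.85, Pdk4 -0.51, S100g -0.41, Scd1 -0.69, Slc26a9 -0.13, Tcf21 -0.67, mt-Atp8 -0.37, mt-Nd4 -0.12 and mt-Nd4l -2.05. Library 2 listed 45.5% of all genes at 0, and the part of such zeros in these reversals was not tested.

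Among the libraries tested, the 2- and 4-week groups share only replicate number 1, so the replicate block needed library 2. The unnumbered library was alone in its block and did not bear on the difference, which rested on 4-week libraries 1 and 2. Deviations of same-numbered libraries correlated at -0.089 to 0.113, and the numbers share no stated source. With the replicate block, 0 genes were called among all tested and 0 among the list members, and 27 log2 differences reversed: Atf3 -0.90, Cldn3 -0.19, Cldn7 -0.24, Cox6c -0.013, Cxcl1 -2.06, Cyp2f2 -0.59, Ddit3 -0.13, Egr1 -0.45, Elovl1 -0.27, Fos -1.77, G0s2 -2.29, Hspa5 -1.61, Il6 -2.76, Mid1ip1 -1.66, Mmp14 0.37, Nnat -0.31, Pdk4 -0.99, S100g -1.54, Scd1 -1.49, Scgb1c1 -0.13, Sftpa1 -0.39, Slc26a9 -0.55, Slc34a2 -0.27, Tcf21 -1.36, mt-Atp8 -1.02, mt-Nd4 -0.53 and mt-Nd4l -3.57.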
